A study of Rattus norvegicus with 20 samples.

Results

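Fos, Jun, Egr1, Atf3 and Myc are transcription factors of the immediate early and stress response, and their messenger RNAs were followed here in the heart ventricles of rats. The members were chosen by Ensembl gene ID: ENSRNOG00000008015 (Fos), ENSRNOG00000026293 (Jun), ENSRNOG00000019422 (Egr1), ENSRNOG00000003745 (Atf3) and ENSRNOG00000004500 (Myc). They are 5 of the 30452 genes in the count table, and all 5 were among the 10929 genes that passed the filter on low counts. The symbols came with the choice of the IDs; the count table does not pair IDs with names, so this pairing could not be checked against an annotation here.

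Right ventricle (RV) and left ventricle (LV) tissue was taken from male rats that had received either monocrotaline (MCT) or saline. MCT comes from Crotalaria plants; it damages the small vessels of the lung, so that the RV has to pump against a higher pressure. Injection was at a weight of 250 g, the MCT dose was 60 mg/kg, and per the labels' protocols the rats were killed once their discomfort score was at least 7. The 20 libraries formed 4 groups of 5: for the RV these were RV MCT and RV saline, and for the LV they were LV MCT and LV saline. No genetic change is named for any group. The labels used here give no strain or age, and all groups were sampled at the end point alone.

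Immediate early genes need no new protein to be switched on: signalling kinases act on factors that already sit at their promoters, and their short-lived mRNAs rise within minutes and fade soon after. Fos and Jun proteins pair to form the AP-1 factor, Egr1 is a zinc finger factor switched on by growth and stretch signals, Atf3 is a stress-induced factor of the ATF/CREB family that can repress its targets, and Myc drives growth and ribosome production. In the heart these genes respond to stretch, catecholamines and ischaemia.

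Total counts ran from 3272420 to 9227104 per library, so weakly expressed genes were measured less precisely. On the first principal component of all tested genes, 2 MCT libraries lay among the saline libraries: RV MCT replicate 4 scored -30.3 and LV MCT replicate 3 scored -21.0, where the other MCT libraries ran from 7.12 to 54.1 and the saline libraries from -31.0 to -9.61. The tissue could not be checked against heart muscle markers, since the IDs of those genes could not be matched to names. Whether each library of a group is a different animal is not stated, and p-values rest on the spread among libraries, which may be technical in part. The libraries of a group are listed below in the order of replicates 1 to 5, as CPM, the count scaled to the TMM-adjusted size of the library.

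None of the 5 genes passed an adjusted p of 0.05 for MCT against saline in either ventricle, for the difference of these responses, or for RV against LV (edgeR quasi-likelihood test, adjusted over all 10929 genes). Over all tested genes the share called was 0.274% for MCT in the RV and 9.52% for MCT in the LV. It was 0.0732% for RV against LV after saline, and no gene was called for RV against LV after MCT or for the difference of responses, where 203 and 305 genes had an unadjusted p under 0.05. DESeq2 and limma voom each called 0 genes for RV against LV after MCT and 1 for the difference of responses. Of the 5 genes, Atf3 alone had an unadjusted edgeR p under 0.05, in 3 of the 5 comparisons. These were MCT in the LV, RV against LV after saline and RV against LV after MCT. Of all 10929 genes, 2761, 909 and 203 had such a p in these comparisons. The largest differences among the 5 genes were also those of Atf3, which was lower after MCT and lower in the RV than in the LV. The median log2 fold change of the 5 genes after MCT was -0.25 in the RV and -0.35 in the LV, against 0.012 and 0.030 over all tested genes. All 5 values in the LV and 4 of 5 in the RV were below 0, and none of them passed the test. These values used TMM scaling, and some signs depended on it. With CPM on total counts, means were higher in LV MCT than in LV saline for Jun, Egr1 and Myc. They were 196 and 193 CPM for Jun, 213 and 198 for Egr1, and 4.33 and 4.26 for Myc. For Fos they were 19.64 and 19.67 CPM in the LV, and 29.1 and 28.0 CPM in RV MCT and RV saline. Atf3 in both ventricles, and Egr1 and Myc in the RV, stayed lower after MCT. In bulk tissue, fewer cells that express a gene and less of its mRNA per cell cannot be told apart.

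**Figure D1:**
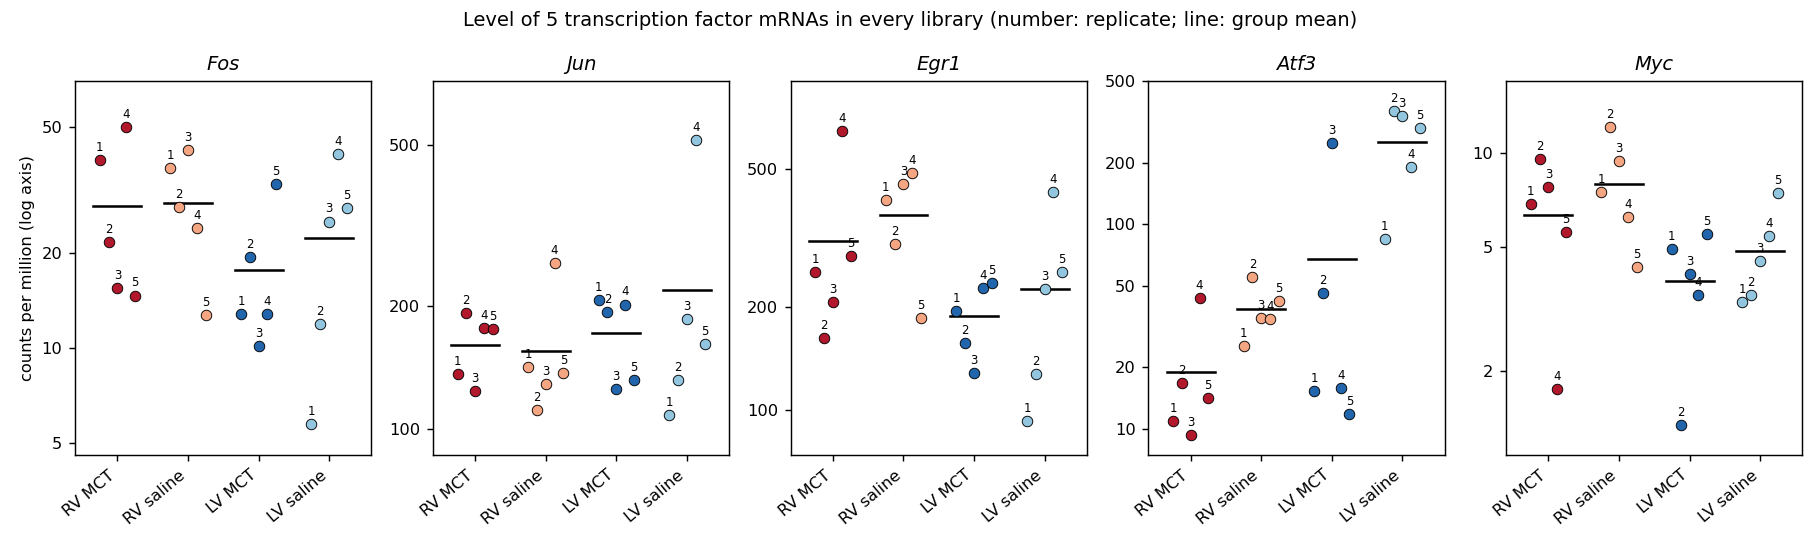
Level of each gene in every library, in CPM on a log axis; numbers are replicates, colours are groups and the black line is the group mean (n = 5). Atf3 stands between 84.3 and 359 CPM in LV saline libraries and between 25.5 and 55.5 CPM in RV saline libraries, while LV MCT replicate 3 at 249 CPM lies with the LV saline libraries; in the other 4 panels all groups overlap.

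Atf3 encodes a bZIP factor induced by many kinds of cell stress, downstream of Atf4 and of stress kinases. Atf3 was at 15.3, 45.9, 249, 15.8 and 11.8 CPM in LV MCT libraries, against 84.3, 359, 340.0, 190.4 and 296 CPM in LV saline libraries. Of the LV MCT libraries, 4 lay below every LV saline library, and replicate 3 lay inside the range of LV saline. The means were 67.6 ± 102 CPM in LV MCT and 254 ± 115 CPM in LV saline (SD, n = 5 each). The fitted difference was -1.93 on the log2 scale (SE 0.67, edgeR adjusted p = 0.071), a 3.82-fold lower fitted level that did not pass the threshold. Of the 10929 genes, Atf3 ranked 1344 by p in this comparison.

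The LV value of Atf3 depended on a single library. Without LV MCT replicate 3 the log2 fold change was -3.52 (edgeR adjusted p = 0.00072), and 15.2% of all tested genes were then called. The remaining 4 LV MCT libraries averaged 22.2 ± 15.9 CPM (SD). Leaving out any other LV library gave values from -2.16 to -1.68 that did not pass. Replicate 3 stood among saline libraries on the first component as a whole, so its removal favours calls for many genes and is no separate evidence for Atf3. DESeq2 gave a log2 fold change of -1.93 with an adjusted p of 0.049 and called 13% of genes. The limma voom fit, which gives outlying libraries less weight, gave -3.66 (adjusted p = 3.8e-05) and called 26.6%. The description codes of the libraries look like dates. Within codes that read as May or June, which include LV MCT replicate 3, the log2 fold change was -1.40 (edgeR adjusted p = 0.49, 3 libraries a group). Within codes that read as November it was -4.12 (edgeR adjusted p = 0.016, 2 libraries a group). The sign was the same in both, and the size was not.

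In the RV, Atf3 was at 10.9, 16.7, 9.31, 43.8 and 14.1 CPM in RV MCT libraries, against 25.5, 55.5, 34.8, 34.3 and 42.2 CPM in RV saline libraries. Of the RV MCT libraries, 4 lay below every RV saline library, and replicate 4 lay within their range. The means were 19.0 ± 14.2 CPM in RV MCT and 38.4 ± 11.2 CPM in RV saline (SD, n = 5 each). On the log2 scale MCT over saline was -1.06 (SE 0.68, edgeR adjusted p = 0.45). Without RV MCT replicate 4 it was -1.59 (edgeR adjusted p = 0.18), and with LV MCT replicate 3 left out as well it was -1.59 (edgeR adjusted p = 0.023, with 9.68% of all tested genes called). Within the May and June codes it was -1.63 and within the November codes, which hold replicate 4, it was -0.43 (edgeR adjusted p = 0.28 and 0.97). In each ventricle, the MCT library with the highest Atf3 was thus the one that lay among the saline libraries over all genes.

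The response of Atf3 was not shown to differ between the ventricles. The RV response minus the LV response was 0.87 on the log2 scale (SE 0.94, edgeR adjusted p above 0.999), with a 95% interval from -1.12 to 2.87. That interval includes 0 and reaches further above 0 than below it, so equal responses were not shown either. The value depended on both MCT libraries that lay among the saline libraries: it was 2.45 without LV MCT replicate 3 (unadjusted p = 0.0012, edgeR adjusted p = 0.82), 0.35 without RV MCT replicate 4 and 1.93 without both (edgeR adjusted p = 0.69). By code it was -0.23 in May and June libraries (edgeR adjusted p above 0.999). In November libraries it was 3.69 (edgeR unadjusted p = 0.00014, adjusted p = 0.80). The May and June libraries, 3 a group, hold LV MCT replicate 3, and the November libraries, 2 a group, hold RV MCT replicate 4.

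The level of Atf3 also separated the ventricles after saline. The RV saline libraries, at 25.5 to 55.5 CPM, all lay below the LV saline libraries, at 84.3 to 359 CPM. Over all tested genes 1.77% were lower in this way, with no overlap of the groups. On the log2 scale RV over LV was -2.73 (SE 0.69, edgeR adjusted p = 0.14, unadjusted p = 0.00073), or 6.62-fold lower in the RV, and Atf3 ranked 56 of the 10929 genes by p. Same-numbered libraries of this treatment share their description codes. Among them Atf3 was lower in the RV in 5 of 5, from 3.305-fold in replicate 1 to 9.77-fold in replicate 3. With no overlap of the groups any pairing gives 5 of 5, so this count adds no support. The fold change moved little with the processing, from -2.95 to -2.57 over all alternatives, but the call did move. It passed with DESeq2 (adjusted p = 0.019, with 0.805% of genes called) and with limma voom (adjusted p = 0.0018, with 1.14% called). It passed in edgeR when the saline libraries alone were fitted (adjusted p = 0.0043, with 0.805% called) and when RV MCT replicate 4 and LV MCT replicate 3 were both left out (adjusted p = 0.0029, with 0.396% called). It did not pass when any single saline library was left out, with edgeR adjusted p from 0.13 to 0.39. The omission of a single MCT library was not examined for this comparison. Within the May and June codes the log2 fold change was -2.78 and within the November codes -2.67 (edgeR adjusted p = 0.54 and 0.26).

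After MCT the ventricles overlapped for Atf3, with 9.31 to 43.8 CPM in RV MCT libraries and 11.8 to 249 CPM in LV MCT libraries. On the log2 scale RV over LV was -1.86 (SE 0.69, unadjusted p = 0.014, edgeR adjusted p above 0.999). Without LV MCT replicate 3 it was -0.28, so most of this difference came from that library. Among same-numbered libraries, Atf3 was lower in the RV in replicates 1, 2 and 3 and higher in the RV in replicates 4 and 5. Within the November codes the sign was the opposite, at 1.02. These codes cover 2 libraries a group, with RV MCT replicate 4 among them and without LV MCT replicate 3.

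**Figure D2:**
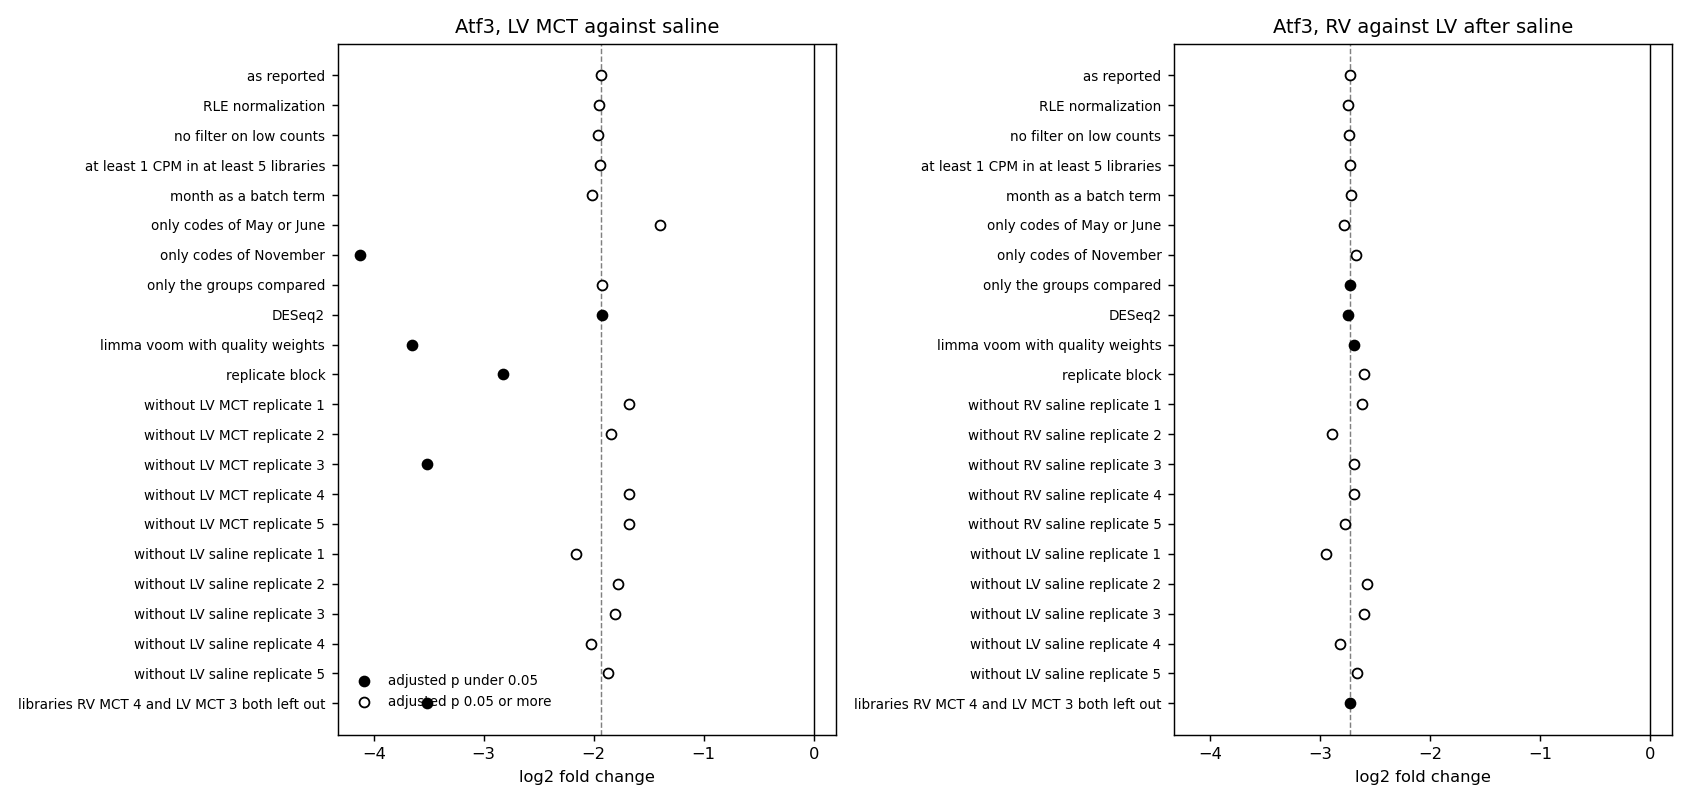
Log2 fold change of Atf3 under every setting tried (rows), for LV MCT against LV saline on the left and RV saline against LV saline on the right; filled points have an adjusted p under 0.05, and the dashed line is the value as reported. All values are below 0; the left panel spreads from -4.12 to -1.40, while the right panel stays between -2.95 and -2.57.

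Fos is the AP-1 partner that is nearly silent in resting cells and responds fastest. Fos was at 39.4, 21.7, 15.4, 50.1 and 14.7 CPM in RV MCT libraries, against 37.0, 28.0, 42.3, 24.04 and 12.7 CPM in RV saline libraries. Both RV groups covered nearly the same range. The fitted log2 fold change was -0.049 (SE 0.45, edgeR adjusted p = 0.98), and its 95% interval ran from -1.001 to 0.90. Leaving out RV MCT replicate 2, 3 or 5 or RV saline replicate 1 or 3 gave values from 0.038 to 0.12, and leaving out RV MCT replicate 4 gave -0.35, so the value has no firm sign. In the LV, Fos was at 12.8, 19.4, 10.1, 12.8 and 33.0 CPM in LV MCT libraries, against 5.73, 11.9, 25.1, 41.1 and 27.8 CPM in LV saline libraries. The LV saline libraries spread 7.18-fold from lowest to highest, more widely than the LV MCT libraries at 3.26-fold; this difference in spread was not tested. The LV log2 fold change was -0.37 (SE 0.46, edgeR adjusted p = 0.67), with a 95% interval from -1.34 to 0.61, and it was -0.24 without LV MCT replicate 3. Within the May and June codes the Fos response was -0.49 in the RV and -0.022 in the LV, and within the November codes 0.79 and -0.63; none passed the test.

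Jun, the other AP-1 partner, is present in resting cells and can also pair with itself or with Atf3. Jun was at 136, 192, 124, 177 and 176 CPM in RV MCT libraries, against 142, 111, 129, 256 and 137 CPM in RV saline libraries. The groups overlapped, and RV saline replicate 4 was the highest. For MCT over saline the log2 fold change was 0.055 (SE 0.33, edgeR adjusted p = 0.97), with a 95% interval from -0.65 to 0.75. Leaving out RV MCT replicate 2 or RV saline replicate 2 or 3 turned the sign, with values from -0.044 to -0.0052. In the LV, Jun was at 208, 194, 125, 202 and 132 CPM in LV MCT libraries, against 108, 132, 186, 512 and 162 CPM in LV saline libraries. LV saline replicate 4 was the highest of all 20 libraries for Jun, and its RV counterpart of the same number was the highest of the RV libraries. The LV log2 fold change was -0.35 (SE 0.33, edgeR adjusted p = 0.56), and it was 0.23 without LV saline replicate 4, so the sign rested on that library. Within the May and June codes the LV value was 0.29 and within the November codes, which hold that library, -1.01, while the RV values were 0.26 and -0.15; none passed the test.

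Egr1 is a textbook target of serum response factor, as is Fos; this factor binds the CArG box, and the promoter of Egr1 is shown for its boxes. Of the 5 genes, 1, Egr1, matched an entry of the RefSeq promoter table by symbol. The stretch lies at chr18:26736933-26737044 on the plus strand of the GRCr8 assembly, from 145 to 34 bases before the annotated start of the gene, and capitals mark the CArG boxes.
Egr1: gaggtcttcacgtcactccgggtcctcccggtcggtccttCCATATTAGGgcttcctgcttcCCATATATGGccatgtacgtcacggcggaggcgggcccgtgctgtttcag

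A search of the 250 bases before the start found 2 CArG boxes in Egr1, at 105 to 96 and at 83 to 74 bases before the start. A CArG box was found in 1.5% of the 33469 promoters of that table, and 2 or more in 7 of them, or 0.0209%. The motif reads the same in form on both strands, so one search covered both. The letters CGTCA, part of the site of CREB and ATF proteins, were also found at 2 places in Egr1, on the plus strand. Counting both strands, 18.2% of promoters held them at least once, and 3.98% held as many as Egr1 or more. The CArG and CGTCA matches did not overlap. These matches describe letters and not binding, and no binding data were part of the study.

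Egr1 was at 252, 162, 207, 644 and 279.5 CPM in RV MCT libraries, against 409, 303, 455, 487 and 186 CPM in RV saline libraries. Of the RV MCT libraries, 4 lay below 4 of the RV saline libraries, and replicate 4 lay above all of them. The log2 fold change was -0.25 (SE 0.38, edgeR adjusted p = 0.81), with a 95% interval from -1.06 to 0.55. Without RV MCT replicate 4 it was -0.71 (edgeR adjusted p = 0.23). Within the May and June codes it was -0.89 and within the November codes 0.46, and neither passed the test. In the LV, Egr1 was at 194, 156, 129, 227 and 234 CPM in LV MCT libraries, against 92.9, 128, 225, 429.6 and 252 CPM in LV saline libraries. The LV MCT libraries fell inside the range of the LV saline libraries. The LV log2 fold change was -0.26 (SE 0.38, edgeR adjusted p = 0.73), with a 95% interval from -1.07 to 0.55. It was 0.11 without LV saline replicate 4 and -0.16 without LV MCT replicate 3; within the May and June codes it was 0.078, and within the November codes -0.57.

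Between the ventricles, Egr1 was on average higher in the RV under both treatments. It averaged 309 ± 193 CPM in RV MCT and 188 ± 45.1 CPM in LV MCT (SD, n = 5 each), and 368 ± 123 CPM in RV saline and 225 ± 132 CPM in LV saline. The log2 fold change of RV over LV was 0.71 after MCT (SE 0.38, unadjusted p = 0.077) and 0.704 after saline (SE 0.38, unadjusted p = 0.080), and neither passed an adjusted p of 0.05 in edgeR (above 0.999 and 0.67). Same-numbered libraries had more Egr1 in the RV in 5 of 5 after MCT and in 4 of 5 after saline. Without RV MCT replicate 4 the value after MCT was 0.26 (unadjusted p = 0.46), and it was 0.15 with LV MCT replicate 3 left out as well. By code it was, for May and June, 0.396 after MCT and 1.36 after saline, and for November 1.005 after MCT and -0.022 after saline. After saline it was 1.08 without LV saline replicate 4.

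Myc had the fewest reads of the 5 genes, with 5 to 76 counts per library, so counting error matters for it. The 5 counts of RV MCT replicate 4 had an exact 95% Poisson interval from 1.62 to 11.7, which covers counting error only. Myc was at 6.87, 9.63, 7.77, 1.75 and 5.61 CPM in RV MCT libraries, against 7.52, 12.2, 9.46, 6.25 and 4.33 CPM in RV saline libraries. RV MCT replicate 4, the highest of its group for Fos, Egr1 and Atf3, was the lowest for Myc. The log2 fold change was -0.25 (SE 0.35, edgeR adjusted p = 0.79), with a 95% interval from -1.0001 to 0.496, and it was -0.055 without RV MCT replicate 4. In the LV, Myc was at 4.95, 1.346, 4.11, 3.51 and 5.50 CPM in LV MCT libraries, against 3.33, 3.50, 4.53, 5.42 and 7.49 CPM in LV saline libraries. These groups overlapped, and the log2 fold change was -0.33 (SE 0.38, edgeR adjusted p = 0.64), with a 95% interval from -1.14 to 0.48. Within the May and June codes the response was -0.23 in the RV and -0.11 in the LV, and within the November codes -0.41 and -0.56.

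For RV against LV, Myc averaged 6.33 ± 2.95 CPM in RV MCT and 3.88 ± 1.61 CPM in LV MCT, and 7.95 ± 3.02 CPM in RV saline and 4.85 ± 1.70 CPM in LV saline (SD, n = 5 each). The log2 fold change of RV over LV was 0.76 after MCT (SE 0.37, unadjusted p = 0.050) and 0.68 after saline (SE 0.37, unadjusted p = 0.079), and neither passed an adjusted p of 0.05 in edgeR (above 0.999 and 0.67). Myc was higher in the RV in 4 of 5 same-numbered pairs under either treatment. Within the November codes both values were below 0, at -0.13 after MCT and -0.29 after saline, and within the May and June codes they were 1.21 and 1.33. Fos and Jun did not pass the test between the ventricles either. For Fos the log2 fold change was 0.67 after MCT (SE 0.46) and 0.35 after saline (SE 0.45). Single libraries moved both Fos values: the value after MCT was 0.38 without RV MCT replicate 4 and 1.02 without LV MCT replicate 5, and the value after saline ran from 0.10 without LV saline replicate 1 to 0.704 without LV saline replicate 4. For Fos the May and June codes gave 0.85 after MCT and 1.31 after saline, and the November codes 0.51 after MCT and -0.92 after saline, with no adjusted p under 0.05. For Jun it was -0.098 after MCT (SE 0.33) and -0.51 after saline (SE 0.33), and these became -0.19 without LV MCT replicate 3 and 0.078 without LV saline replicate 4.

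**Figure D3:**
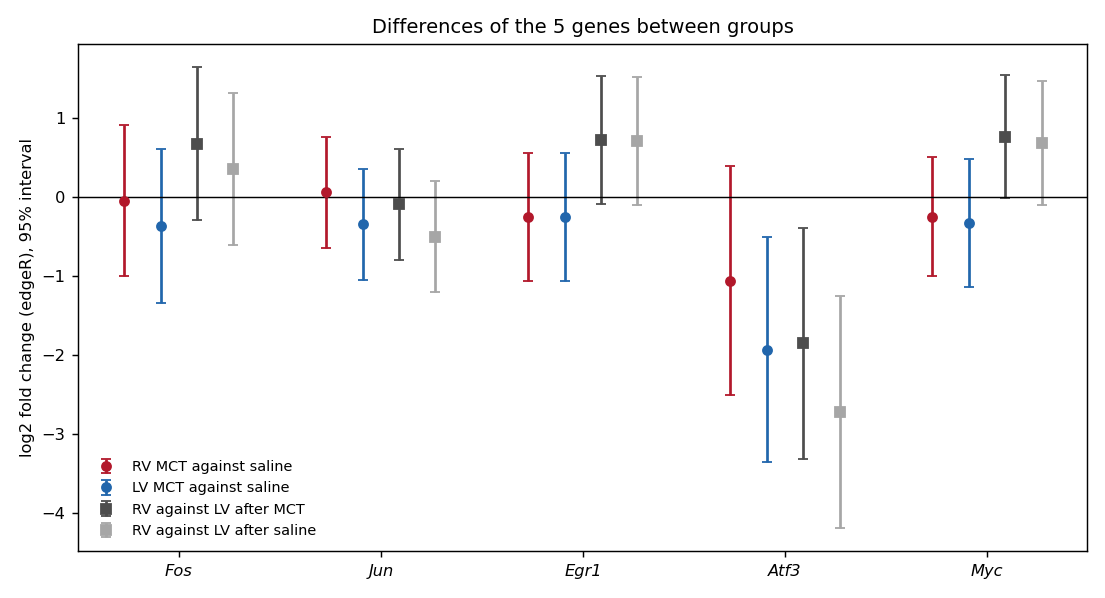
Log2 fold change of each gene with its 95% interval, for MCT over saline in the RV and LV (circles) and for RV over LV after MCT and after saline (squares). All intervals cross 0 except those of Atf3 for LV MCT against saline and for RV against LV under both treatments; these intervals are not adjusted for the number of genes, and no adjusted p was under 0.05.

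The order of the groups by mean level differed between the genes. For Atf3 it ran, from high to low, LV saline, LV MCT, RV saline and RV MCT; the libraries of all neighbours in this order overlapped. Without LV MCT replicate 3 the mean of LV MCT was 22.2 CPM, below the 38.4 CPM of RV saline, so the places of these 2 groups rested on that library. For Fos, Egr1 and Myc it ran RV saline, RV MCT, LV saline and LV MCT, and the libraries of all neighbours overlapped. For Egr1, without RV MCT replicate 4, RV MCT averaged 225.1 CPM and LV saline 225.5 CPM, so their order also rested on 1 library. For Jun it ran LV saline, LV MCT, RV MCT and RV saline, also with overlap throughout. These orders used TMM-scaled CPM. With CPM on total counts, LV MCT stood above LV saline for Egr1, Jun and Myc, and RV MCT above RV saline for Fos. The order for Atf3 stayed the same.

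The 5 genes varied widely between libraries of one group. The SD of log2 CPM around the group means was 1.11 for Atf3, 0.82 for Fos, 0.67 for Egr1, 0.66 for Myc and 0.54 for Jun, where the median over the 10929 tested genes was 0.38. Atf3 thus varied more than 99.0% of the tested genes, Fos more than 94.9%, Egr1 and Myc more than 88.3%, and Jun more than 77.7%. Myc also had the lowest counts, which add counting error. For Atf3 the spread was uneven: the SD was 1.805 in LV MCT, 0.87 in LV saline, 0.86 in RV MCT and 0.41 in RV saline.

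Fos and Egr1 moved together from library to library. After the group means were taken off, their log2 CPM correlated with a Pearson value of 0.798 and a Spearman value of 0.76 over the 20 libraries, given as a description since libraries may share animals. Of 10928 other genes, Egr1 was the second closest to Fos, and Fos was the second closest to Egr1. Without the 2 libraries farthest from the median of Fos the Pearson value was 0.698. It was 0.71 in the 10 RV libraries, 0.88 in the 10 LV libraries, 0.82 in the 12 May and June libraries and 0.79 in the 8 November libraries. Depth and composition are shared by both genes of a library. In LV saline both genes ranked the 5 libraries in the same order, with replicate 4 highest and replicate 1 lowest. Replicate 1 was also the lowest of that group for Jun, Atf3 and Myc. In the other groups the orders of Fos and Egr1 were not the same.

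Jun followed Egr1 less closely, with a Pearson value of 0.61 and a Spearman value of 0.498. Jun ranked 32 of 10928 genes for likeness to Egr1, and Egr1 ranked 577 for likeness to Jun. Their Pearson value was 0.82 in the LV and 0.31 in the RV, and 0.43 without the 2 libraries farthest from the median of Jun. For Fos and Jun, the 2 partners of AP-1, the Pearson value was 0.39, and it was -0.033 without the 2 libraries farthest from the median of Fos, so the pooled value rested on those libraries. It was 0.604 in the LV and -0.048 in the RV, and 0.64 in May and June codes and 0.19 in November codes. Atf3 showed no such relation in the pooled values, with 0.055 to Fos, 0.015 to Egr1 and -0.061 to Jun. In the RV these were 0.32, 0.44 and 0.15, and in the LV -0.044, -0.19 and -0.12. Myc had values of 0.10 to Fos, -0.071 to Egr1, -0.071 to Jun and -0.26 to Atf3. The pooled values of Myc covered unlike ones: to Egr1 it was -0.53 in the RV and 0.502 in the LV, and to Atf3 -0.596 in the RV and -0.11 in the LV, with 0.16 in May and June codes and -0.802 in November codes.

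**Figure D4:**
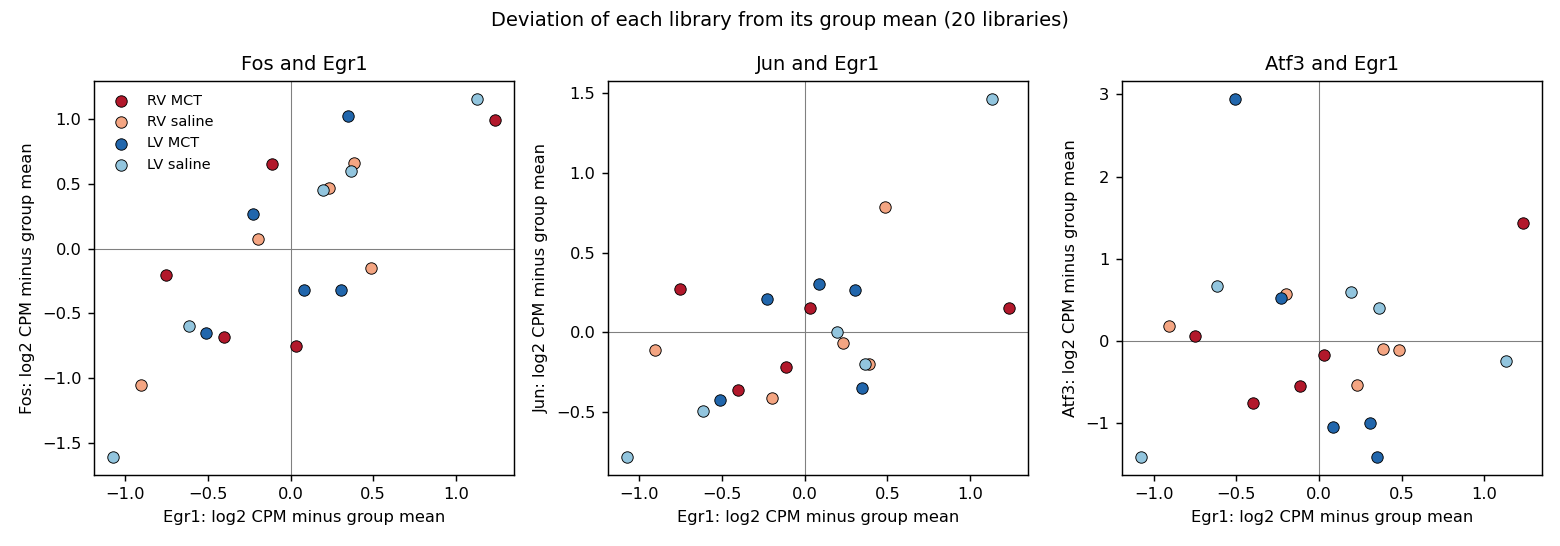
Deviation of each library from its group mean in log2 CPM, with Egr1 on the horizontal axis and Fos, Jun or Atf3 on the vertical axis; each point is 1 of 20 libraries, coloured by group. Fos runs along with Egr1 (Pearson 0.798), Jun less so (0.61), and Atf3 does not (0.015).

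The gene closest to each member in this measure is given by its ID, since the files do not pair IDs with names. For Fos it was ENSRNOG00000046667, with a Pearson correlation of 0.81. For Egr1 it was ENSRNOG00000014350, with 0.82. For Jun, Atf3 and Myc they were ENSRNOG00000036697 (0.902), ENSRNOG00000045831 (0.87) and ENSRNOG00000008340 (0.87). The highest values among 10928 genes over 20 libraries are high in part because they are the highest of many.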

How the data were processed

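Libraries were made from total RNA with the QuantSeq 3' FWD kit, which reads the 3' ends of mRNAs, and sequenced as 150 bp read pairs, per the labels' protocols. The deposited values were raw read counts per Ensembl gene, with 1 column per library. STAR 2.7.10a, HTSeq 0.11.3 and the builds mRatBN7.2 and rn6 are named, without their roles, per the submitters' processing notes. Neither strand setting nor annotation release is given, so reads of genes that overlap or have close copies may be assigned to the wrong gene.

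From these counts, edgeR 4.0.16 in R 4.3.3 gave CPM with TMM scaling, which sets library sizes by the bulk of genes. All 20 libraries entered 1 robust quasi-likelihood model with a mean for each of the 4 groups. The filterByExpr filter kept 10929 of 30452 genes with 99.8% of the counts, and p-values were Benjamini-Hochberg adjusted over these (threshold 0.05). Standard errors came from the F statistic, and 95% intervals used 16 residual degrees of freedom. Log2 CPM for deviations and principal components used a prior count of 2. The procedure was tested on simulated data.

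The 5 genes are always named; the closest genes are those with the highest correlation of deviations. Lists of other immediate early genes, stress genes, Myc partners and cell type markers had been set by symbol, but the reference gene table (GRCr8) held an Ensembl ID for 0 genes, so 0 of their members could be matched and they are not analysed here. Members and lists were chosen with earlier results of these data known. All 40 within-group pairs of libraries differed beyond sampling noise (chi-square divided by its degrees of freedom, 4.87 to 136). Alternatives were RLE scaling, other filters on low counts, the month read in the codes as a term or as subsets, fits of the compared groups alone, a replicate block, omission of single libraries or of RV MCT replicate 4 and LV MCT replicate 3 together, DESeq2 1.42.0, limma 3.58.1 voom with quality weights, and CPM on total counts.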

Additional observations from a re-analysis of the deposited data

Results flagged for a closer look

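Of the 20 sets of 5 values, 1 per gene and group, 5 held a library whose gap to the next one was wide for the group. Wide meant a gap above 0.71 of the range of the set, which picks about 1 in 20 sets of independent normal values. The CPM were not log-transformed and the genes share libraries, so that rate need not hold here. Whether 5 of 20 is more than chance gives was not tested. Jun stood highest in replicate 4 of both saline groups, at 256 CPM in RV saline, where the next library was at 142 CPM, and at 512 CPM in LV saline, where the next was at 186 CPM. RV MCT replicate 4 stood apart for Egr1, at 644 CPM with the next at 279.5 CPM, and for Atf3, at 43.8 CPM with the next at 16.7 CPM. LV MCT replicate 3 stood apart for Atf3, at 249 CPM with the next at 45.9 CPM. RV MCT replicate 4 and LV MCT replicate 3 are the MCT libraries that lay among the saline libraries over all genes, while both Jun libraries carry the same replicate number and a November code. Causes were not tested.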

How the results depend on the processing

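The 5 genes in 5 comparisons gave 25 results, for which 570 values were computed under the alternatives. Of these, 11 passed an adjusted p of 0.05, all of them for Atf3. The number of the 5 genes called, 0 as reported, became 1 for MCT in the RV with RV MCT replicate 4 and LV MCT replicate 3 both left out, where 9.68% of all tested genes were called. It became 1 for MCT in the LV with DESeq2 (13% of all tested genes called), limma voom (26.6%), the replicate block (3.57%), November codes (2.19%) and both libraries left out (18.1%), and leaving out 1 library gave 0 to 1. It became 1 for RV against LV after saline with DESeq2 (0.805%), limma voom (1.14%), the saline groups alone (0.805%) and both libraries left out (0.396%).

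With the replicate number as a block, Atf3 had a log2 fold change of -2.83 in the LV (edgeR adjusted p = 0.029) and -1.22 in the RV (adjusted p = 0.27). With a replicate block that joins the RV and LV library of one number, it was -2.60 for RV against LV after saline (adjusted p = 0.14). Less stable were RV against LV after MCT, at -0.88 where -1.86 was reported, and the difference of responses, at 1.72 where 0.87 was reported. The edgeR adjusted p was above 0.999 for both. With limma voom these 2 values were -0.53 and 2.16 (adjusted p = 0.93 and 0.54). Of the 5 genes, none was called in the block fit. Over all tested genes it called 0.0823% for RV against LV after saline, and 0 after MCT and for the difference of responses. Over all genes, deviations from the group means correlated from -0.32 to 0.22 between MCT and saline libraries of one number, and from -0.35 to 0.59 between RV and LV libraries of one number, which also share their description code; 3 of the 5 saline pairs were at 0.25 to 0.59. Not every pair deviated together, and whether same-numbered RV and LV libraries come from 1 animal is not stated.

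A change of sign occurred in 48 of the 570 values, none of which passed the threshold. For the difference of responses, May and June codes gave -0.46 for Fos, -0.030 for Jun, -0.97 for Egr1, -0.23 for Atf3 and -0.12 for Myc. The same difference for Egr1 was -0.22 with the month term, -0.25 with the replicate block, -0.398 with limma voom and -0.55 with both libraries left out; for Jun it was -0.075 with limma voom and for Fos -0.10 with both left out. MCT in the LV gave 0.29 for Jun and 0.078 for Egr1 in May and June codes, and 0.18 and 0.11 with limma voom. November codes gave 0.79 for Fos, -0.15 for Jun and 0.46 for Egr1 for MCT in the RV. They gave -0.92 for Fos, -0.022 for Egr1 and -0.29 for Myc for RV against LV after saline, and 0.0795 for Jun, 1.02 for Atf3 and -0.13 for Myc after MCT. Leaving out 1 library gave, for MCT in the RV, -0.35 to 0.12 for Fos and -0.044 to 0.31 for Jun, and in the LV -0.53 to 0.23 for Jun and -0.46 to 0.11 for Egr1. For the difference of responses it gave -0.033 to 0.68 for Fos, -0.18 to 0.66 for Jun, -0.44 to 0.21 for Egr1 and -0.13 to 0.28 for Myc. For RV against LV after saline it gave -0.76 to 0.078 for Jun. For all of these, the cause was not tested. CPM on total counts moved no group mean by more than its SD, but it changed the order of the group means for Fos, Jun, Egr1 and Myc. Depth limits Myc most, with 5 to 76 counts per library.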
